A study of Homo sapiens with 6 samples.

Results

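The YAP and TEAD genes examined here are 10 genes: the coactivators YAP1 and WWTR1 (which encodes TAZ), the DNA-binding factors TEAD1 to TEAD4, and the target genes CYR61, CTGF, ANKRD1 and AMOTL2. They were chosen by gene symbol, each matched a single gene identifier among the 58233 genes listed, and all 10 had a mean of at least 1 FPKM (fragments scaled to transcript length and to library size) and so were among the 12853 genes tested. RNA was sequenced from cells labelled Huh7, a human hepatocellular carcinoma line, in 3 libraries of cells transfected with a plasmid that overexpresses the long noncoding RNA TP53TG1 and 3 control libraries of cells given an empty plasmid. By these labels all 6 libraries come from transfected cells of a single line. Neither separate cultures nor the kind of transfection, stable or transient, is stated in the labels, so the p-values rest on a spread that may be technical.

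YAP and TAZ carry the output of the Hippo pathway, a kinase relay that senses cell contact, polarity and tension and limits organ size, in the liver above all. The kinases encoded by STK3 and STK4 activate those encoded by LATS1 and LATS2, which phosphorylate YAP and TAZ, so that these are held in the cytoplasm by 14-3-3 proteins or degraded. Unphosphorylated YAP and TAZ enter the nucleus, bind TEAD factors and activate genes such as CTGF and CYR61. This regulation acts on the proteins, which RNA levels do not show.

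TEAD factors bind the letters GGAATG, and the sequence upstream of the target genes shows where these letters lie. RefSeq promoters (GRCh38.p14) were held for 7 of the 10 genes, as 10 windows of the 250 bases before an annotated start, and 4 windows held GGAATG on either strand. No window was held for CYR61, TEAD1 and TEAD4, so the sequence upstream of these genes was not examined. Of all 35116 windows of that length, 11.9% held it at least 1 time, 0.94% at least 2 times and 0.0826% at least 3 times. The window of CTGF (named CCN2 in RefSeq) held it 3 times, with first bases at -169, -104 and -95 from the start. It is shown whole on the minus strand up to the first annotated exon (chr6:131951374-131951622), with GGAATG in capitals.
CTGF: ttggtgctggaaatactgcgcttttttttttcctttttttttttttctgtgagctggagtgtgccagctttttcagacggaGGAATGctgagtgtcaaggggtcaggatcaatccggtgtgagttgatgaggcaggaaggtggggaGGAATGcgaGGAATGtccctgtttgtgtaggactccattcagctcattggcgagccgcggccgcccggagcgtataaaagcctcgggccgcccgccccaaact

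The window of ANKRD1 held it 2 times, at -220 and -128, and 1 of the 2 AMOTL2 windows held it 1 time at -69, read from the opposite strand as CATTCC. Each is shown with 12 bases on either side, to set the flanks beside those in CTGF (ANKRD1 at chr10:90921290-90921319 and chr10:90921198-90921227, AMOTL2 at chr3:134374499-134374528, all minus strand).
ANKRD1 at -220: atcaccaccaaaGGAATGgccctctcacat
ANKRD1 at -128: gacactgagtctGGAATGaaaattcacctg
AMOTL2 at -69: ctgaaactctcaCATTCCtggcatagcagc
The second ANKRD1 site and the AMOTL2 site lie inside an exon of GENCODE release 29. For ANKRD1 the GENCODE start lies further upstream. For AMOTL2 the GENCODE transcript ENST00000422605 begins at the start used for this window, and the exon belongs to another transcript that begins further upstream. YAP1 itself held the letters 1 time, at -162. The AP-1 motif TGANTCA was found in 1 of the 10 windows, that of ANKRD1 at -195 (6.57% of all windows), and a CArG box, the element bound by SRF, in 0 of the 10 (1.16% of all windows). These matches describe the letters, and binding was not measured.

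The transfected gene and the libraries set the frame. TP53TG1 averaged 91.5 ± 37.0 FPKM in TP53TG1 libraries and 7.32 ± 2.85 FPKM in control libraries (SD, n = 3 each), with groups that did not overlap. Its log2 fold change of 3.46 (SE 0.381) missed the threshold in limma without scaling, at an adjusted p of 0.0573, and passed with scaling, at 0.0465. Depth could not be read from the FPKM values. The libraries numbered 1 stood apart in both groups: the mean length of protein-coding transcripts, weighted by FPKM, was 1228 nt in TP53TG1 replicate 1 and 1311 nt in control replicate 1, against 1652 to 1710 nt in the other 4. TP53TG1 replicate 1 also differed from control replicate 1. Small RNA types held 5.24% of its FPKM, against 0.704% in control replicate 1 and 0.236% to 1.12% in the other 4. Transcripts above 0 numbered 54565, against 68481 in control replicate 1 and 73521 to 76835 in the other 4. Median-of-ratios factors, which put the libraries on a common scale, were 0.601, 1.104 and 1.006 for TP53TG1 replicates 1 to 3, against 1.111, 1.188 and 1.183 for the 3 controls. Without scaling, the median log2 fold change (TP53TG1 minus control) of all tested genes was -0.35, and with scaling it was 0.00. Of 8 hepatocyte markers of the labelled line 5 were tested, and their sum was 10.4 to 29.7 FPKM in TP53TG1 libraries and 22.0 to 31.6 FPKM in control libraries. HNF4A stood at 2.57 to 14.6 FPKM in TP53TG1 libraries and 7.28 to 15.0 FPKM in control libraries, and TF at 3.51 to 9.19 FPKM in TP53TG1 libraries and 7.94 to 10.3 FPKM in control libraries. AFP stood at 0.63 to 3.49 FPKM in TP53TG1 libraries and 1.83 to 2.37 FPKM in control libraries. ALB stood at 0.56 to 1.22 FPKM in TP53TG1 libraries and 0.53 to 1.1 FPKM in control libraries, and TTR was listed at 0 in 4 of 6 libraries. The 6 intestinal epithelial markers summed to 65.0 to 144 FPKM in TP53TG1 libraries and 157 to 212 FPKM in control libraries, with CDX1 listed at 0 in all 6. CDX2 averaged 7.03 ± 2.72 FPKM in TP53TG1 libraries and 8.69 ± 1.36 FPKM in control libraries (SD, n = 3 each). Its groups overlapped with and without scaling. KRT20 made up most of that sum of intestinal markers. Of the 4 tested, 3 (KRT20, VIL1 and CDH17) had an unadjusted p under 0.05 in limma, against 2.35% of all tested genes, with 0 called. The list median log2 fold change was -0.98, and -0.59 with scaling. Without scaling the groups were apart and lower with TP53TG1 for KRT20, VIL1 and CDH17 (13.3% of all tested genes). With scaling they were so for VIL1 and CDH17 (2.05%). The part of the libraries numbered 1 and of these markers in the values below was not tested.

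None of the 10 genes was called as changed by TP53TG1, in a fit that did not call the transfected gene either. By limma with Benjamini-Hochberg adjustment over all tested genes, 0 of the 10 passed an adjusted p of 0.05 and 0 had an unadjusted p under 0.05, where 0.00778% and 2.35% of all tested genes did. Adjusted p-values lay between 0.748 and 0.932, and the 95% intervals of 9 of the 10 genes reached a change of 1 on the log2 scale, so changes of that size are not excluded. With scaling 0 of the 10 passed, against 0.0156% of all tested genes. With the replicate number as a block, 0 passed and 1, TEAD2, had an unadjusted p under 0.05, against 1.49% and 10.7% of all tested genes. With the block and scaling, 0 passed and 1, CYR61, had an unadjusted p under 0.05, against 0.0467% and 5.31%.

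The fold change was above 0 for 3 of the 10 genes without scaling (CYR61, CTGF and ANKRD1), against 8.57% of all tested genes. With scaling it was above 0 for 5, these 3 with AMOTL2 and TEAD4, against 49.1%. The values of the groups overlapped for all 10 genes, with and without scaling, where 13.7% of all tested genes had groups apart without scaling and 4.05% with it.

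**Figure D1:**
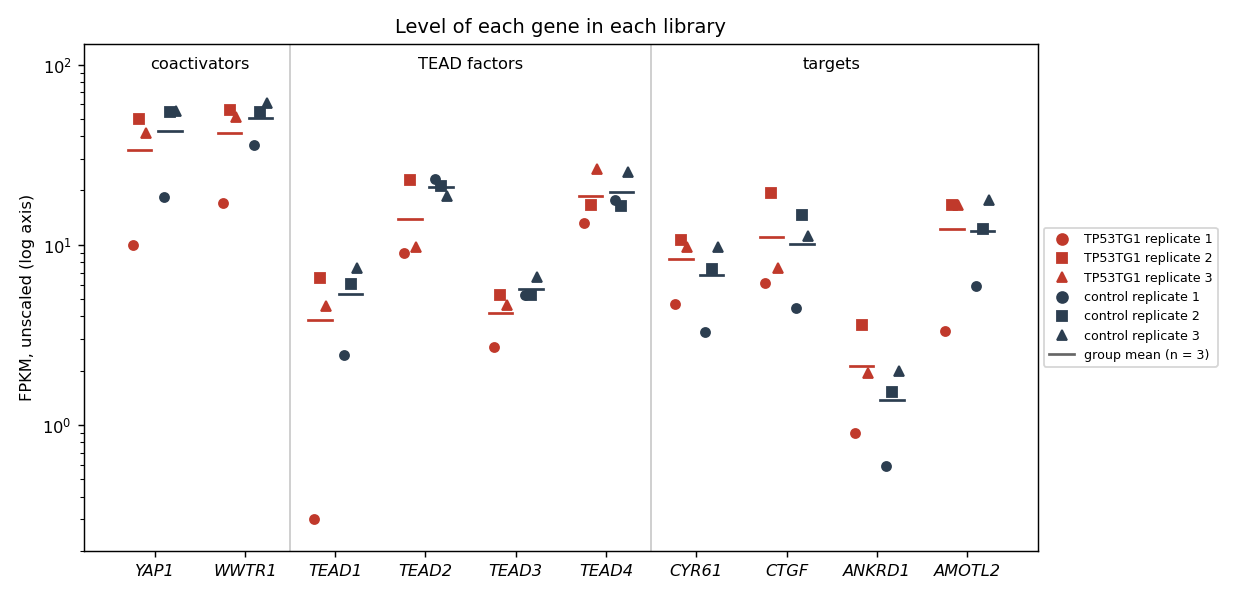
Unscaled FPKM of the 10 genes on a log axis in each of the 3 TP53TG1 libraries (red) and 3 control libraries (dark), with replicate number as symbol and the group mean as a line. The groups overlap for every gene, and TEAD1 in TP53TG1 replicate 1, at 0.30 FPKM, is the lowest point.

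By group mean, the coactivators were the most abundant of the 10, though in the libraries numbered 1 YAP1 lay below TEAD4 (TP53TG1) or TEAD2 (control). YAP1 (chr11:102110461-102233423, plus strand) stood at 9.91, 49.5 and 41.8 FPKM in TP53TG1 replicates 1 to 3, against 18.5, 54.3 and 55.3 FPKM in control replicates 1 to 3. Replicate 1 was the lowest in both groups, and the 2 other TP53TG1 libraries lay below the 2 other controls. The log2 fold change was -0.45 (SE 0.635, 95% interval -1.89 to 0.99, limma with Benjamini-Hochberg adjusted p = 0.752), and -0.07 with scaling (interval -1.28 to 1.14). Once scaled, TP53TG1 over control was 0.992, 0.982 and 0.889 between libraries of the same number, so YAP1 differed little within each pair. With the replicate number as a block and scaling the interval was -0.40 to 0.27. It did not reach a change of 1 on the log2 scale, nor did those of WWTR1, TEAD2, TEAD3, TEAD4 and AMOTL2. That fit rests on pairs by replicate number, which the data do not establish for pairs 2 and 3.

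WWTR1 (chr3:149517235-149736714, minus strand) stood at 17.0, 56.2 and 51.4 FPKM in TP53TG1 replicates 1 to 3, against 35.9, 54.7 and 61.3 FPKM in control replicates 1 to 3. As for YAP1, replicate 1 was the lowest in each group. Its log2 fold change was -0.42 (SE 0.463, limma adjusted p = 0.748), and -0.02 with scaling (-0.37 to 0.33 with the block and scaling). The direction of both coactivators turned when TP53TG1 replicate 1 was left out, to 0.24 for YAP1 and 0.12 for WWTR1. It did not turn without both libraries numbered 1, at -0.26 and -0.11 without scaling. With scaling they were then -0.10 and 0.06. WWTR1 lay above YAP1 in all 3 libraries of each group, at means of 41.5 and 33.8 FPKM in TP53TG1 libraries and 50.6 and 42.7 FPKM in control libraries, though their ranges overlapped.

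**Figure D2:**
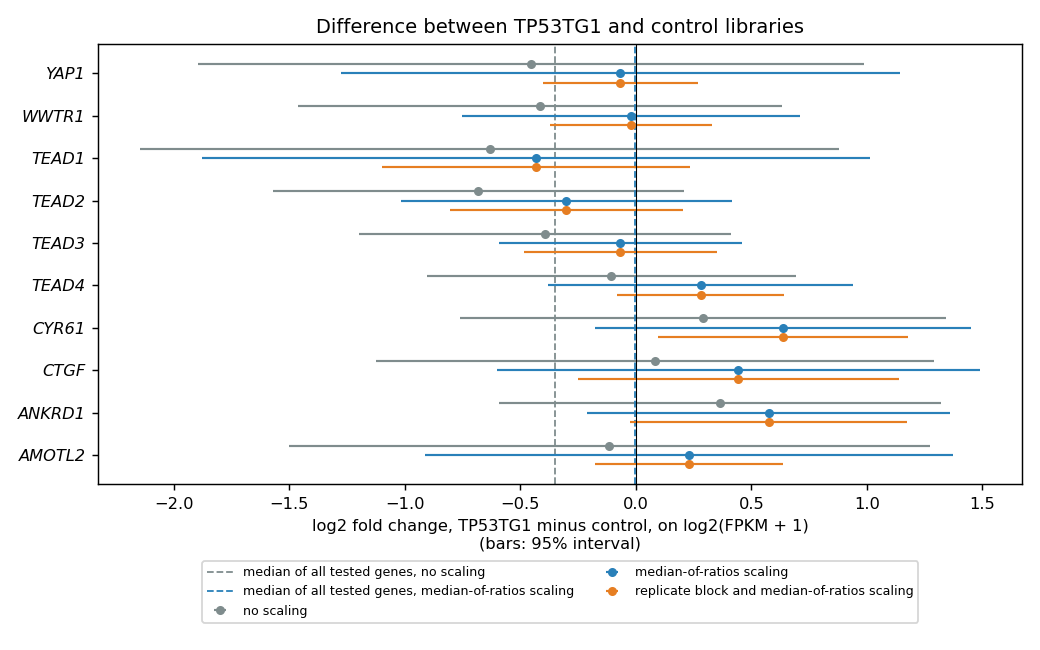
Log2 fold change (TP53TG1 minus control, on log2(FPKM + 1)) of each gene with its 95% interval, without scaling (grey), with median-of-ratios scaling (blue), and with scaling and the replicate number as a block (orange). Dashed lines mark the median of all tested genes, -0.35 without scaling and 0.00 with it; of all intervals drawn, only that of CYR61 in the last fit leaves out 0.

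The 4 TEAD factors, which share a DNA-binding domain and recruit YAP and TAZ, were all tested. TEAD4 and TEAD2 stood at similar levels, at 18.7 ± 6.72 and 13.9 ± 7.79 FPKM in TP53TG1 libraries and 19.7 ± 4.77 and 21.0 ± 2.27 FPKM in control libraries (SD, n = 3 each). TEAD3 and TEAD1 were lower, at 4.2 ± 1.34 and 3.81 ± 3.19 FPKM in TP53TG1 libraries and 5.71 ± 0.765 and 5.30 ± 2.57 FPKM in control libraries (SD, n = 3 each). The order of TEAD3 and TEAD1 was not beyond their spread in either group.

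TEAD2 (chr19:49340595-49362457, minus strand), a family member prominent in early embryos, had a log2 fold change further from 0 than the other 9 genes without scaling, an order that TEAD1 led with a pseudocount of 0.1 (-1.08, against -0.73 for TEAD2) and TEAD3 with coding transcripts only (-0.72, against -0.69 for TEAD2). It stood at 9.05, 22.9 and 9.68 FPKM in TP53TG1 replicates 1 to 3, against 23.2, 21.1 and 18.7 FPKM in control replicates 1 to 3. TP53TG1 replicates 1 and 3 lay below all controls, while TP53TG1 replicate 2 lay among them. The log2 fold change was -0.68 (SE 0.393, limma adjusted p = 0.748) and -0.30 with scaling. CD37, a gene on the opposite strand whose exons overlap those of TEAD2, reached at most 2.22 FPKM, and whether the libraries keep the strand is not given in the sources used here.

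TEAD1 (chr11:12674591-12944483, plus strand), the family member broadly present in adult tissues, stood at 0.30, 6.53 and 4.59 FPKM in TP53TG1 replicates 1 to 3, against 2.43, 6.08 and 7.40 FPKM in control replicates 1 to 3. The value of TP53TG1 replicate 1 lay far below all others. Between libraries of the same number, scaled TP53TG1 over control was 0.228, 1.16 and 0.729. The log2 fold change of -0.63 (SE 0.667, limma adjusted p = 0.748) turned to 0.14 without TP53TG1 replicate 1. Without both libraries numbered 1 it was -0.25, and -0.10 with scaling.

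TEAD3 (chr6:35473597-35497076, minus strand) stood at 2.70, 5.26 and 4.65 FPKM in TP53TG1 replicates 1 to 3, against 5.24, 5.29 and 6.59 FPKM in control replicates 1 to 3. Its log2 fold change was -0.40 (SE 0.355, limma adjusted p = 0.748) over all transcripts and -0.72 over coding transcripts only (limma adjusted p = 0.759), and most of the value of TP53TG1 replicate 1 lay in a transcript annotated for nonsense-mediated decay. With scaling the sum of all transcripts lay at 4.49 to 4.77 FPKM with TP53TG1 and 4.45 to 5.57 FPKM in controls (log2 fold change -0.07, limma interval -0.59 to 0.46). TEAD4 (chr12:2959330-3040673, plus strand) stood at 13.2, 16.7 and 26.2 FPKM in TP53TG1 replicates 1 to 3, against 17.7, 16.3 and 25.2 FPKM in control replicates 1 to 3. Replicate 3 was the highest in each group. Its log2 fold change of -0.11 (SE 0.353, limma adjusted p = 0.868) turned to 0.28 with scaling, where TP53TG1 lay above control in all 3 pairs at ratios of 1.37, 1.1 and 1.22.

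**Figure D3:**
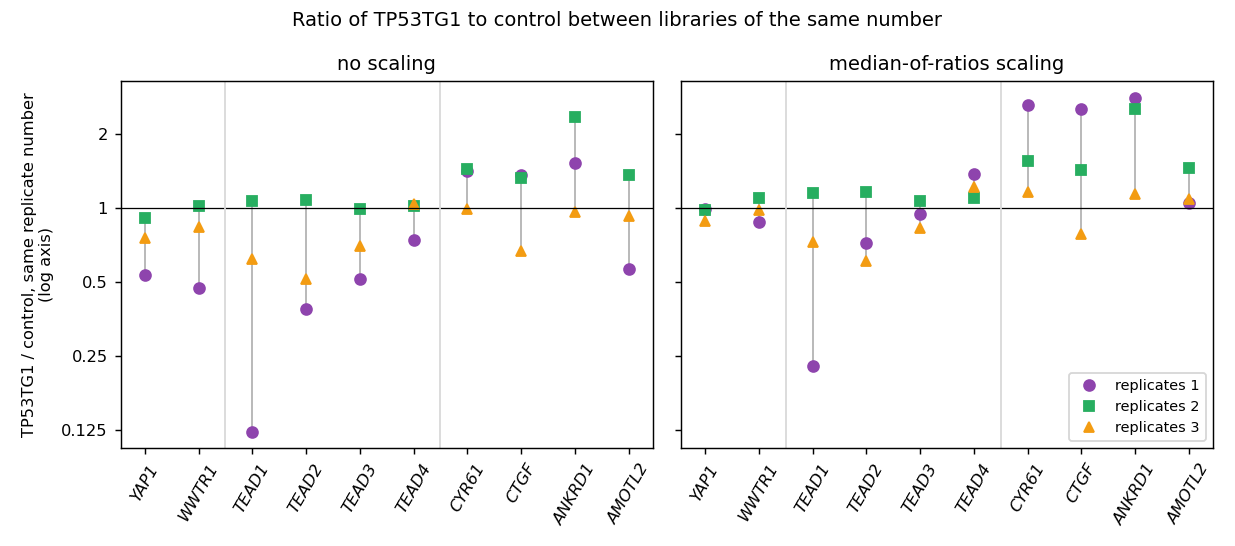
FPKM in a TP53TG1 library divided by that in the control library of the same number, on a log axis, without scaling (left) and with median-of-ratios scaling (right); each symbol is 1 pair. With scaling, CYR61, ANKRD1, AMOTL2 and TEAD4 lie above 1 in all 3 pairs, and YAP1 lies below 1 in all 3, at 0.889 to 0.992.

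The 4 target genes lay above the median of all tested genes in their fold change, each with an interval that includes 0 in the fits without a block. CYR61 (chr1:85580761-85583962, plus strand), which encodes a secreted matrix protein that binds integrins, stood at 4.66, 10.6 and 9.66 FPKM in TP53TG1 replicates 1 to 3, against 3.27, 7.34 and 9.72 FPKM in control replicates 1 to 3. TP53TG1 was higher than control in pairs 1 and 2 and level in pair 3. Its log2 fold change was 0.29 (SE 0.463, limma adjusted p = 0.763) and 0.64 with scaling, where the pair ratios were 2.63, 1.55 and 1.17. With the block and scaling its interval was 0.10 to 1.18 and its unadjusted p 0.0277, but the limma adjusted p was 0.890. Its sign turned to -0.09 without control replicate 1.

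CTGF (chr6:131948176-131951373, minus strand), whose product belongs to the same secreted family and is raised in fibrosis, stood at 6.12, 19.4 and 7.47 FPKM in TP53TG1 replicates 1 to 3, against 4.47, 14.6 and 11.2 FPKM in control replicates 1 to 3. It was highest in replicate 2 of each group and lower with TP53TG1 than control in pair 3. The log2 fold change was 0.08 (SE 0.533, limma adjusted p = 0.932), 0.44 with scaling and -0.38 without TP53TG1 replicate 2. The 3 copies of GGAATG shown above thus stand before a gene whose RNA differed by less than the spread between replicates.

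ANKRD1 (chr10:90912096-90921276, minus strand), which encodes an ankyrin repeat protein of muscle and endothelium used as a YAP readout, had the lowest group means of the 10 in FPKM, though TEAD1 lay below it in TP53TG1 replicate 1. It stood at 0.90, 3.58 and 1.93 FPKM in TP53TG1 replicates 1 to 3, against 0.59, 1.52 and 1.99 FPKM in control replicates 1 to 3. TP53TG1 replicate 2 was the highest library. The log2 fold change was 0.36 (SE 0.422, limma adjusted p = 0.748) on a scale that understates changes of low genes, 0.56 with a pseudocount of 0.1, and 0.57 with scaling, at pair ratios of 2.82, 2.54 and 1.14.

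AMOTL2 (chr3:134355874-134375479, minus strand), which encodes an angiomotin family protein that binds YAP and holds it out of the nucleus, stood at 3.34, 16.6 and 16.5 FPKM in TP53TG1 replicates 1 to 3, against 5.87, 12.2 and 17.8 FPKM in control replicates 1 to 3. Replicate 1 was the lowest in both groups. The log2 fold change was -0.12 (SE 0.612, limma adjusted p = 0.916) and 0.23 with scaling, at pair ratios of 1.05, 1.46 and 1.09. Exact two-sided permutation tests of the 10 genes gave p from 0.2 to 1.0 with and without scaling, where 0.1 is the smallest that 3 against 3 libraries allow.

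Across the 10 genes, 0 were higher with TP53TG1 in all 3 pairs and 2 were lower without scaling, YAP1 and TEAD3, against 1.24% and 44.8% of all tested genes. With scaling, 4 were higher in all 3 pairs and 1 lower, against 12.9% and 13.8% of all tested genes. The pairs rest on the replicate numbers, and the data do not establish pairs 2 and 3. Without the libraries numbered 1, the groups were apart for 2 genes, YAP1 and TEAD3, both lower, where 35.5% of all tested genes were apart and lower and 6.58% apart and higher. With scaling the groups were apart for YAP1, lower (17.5% of all tested genes), and CYR61, ANKRD1 and AMOTL2, higher (15.4%). In limma without these libraries 0 of the 10 were called and 0 had an unadjusted p under 0.05, against 0.00778% and 6.14% of all tested genes. Fold changes were then above 0 for 4 of the 10, against 26.5%.

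The libraries numbered 1 were low for most of the 10 genes. On the scaled values, 6 of the 10 genes (YAP1, WWTR1, TEAD1, CYR61, ANKRD1 and AMOTL2) had replicate 1 as the lowest library in both groups, against 32.7% of all tested genes. On log2(scaled FPKM + 1), the libraries numbered 1 differed from the other 4 by -1.56 for TEAD1, -1.38 for YAP1 and -1.22 for AMOTL2, and 2.54%, 3.93% and 5.90% of all tested genes lay further down. TEAD2, TEAD3 and TEAD4 showed no such gap, at 0.19, -0.06 and 0.02. The transcripts of TEAD1, AMOTL2 and YAP1 are the longest of the 10 genes, at weighted means of 5366, 4356 and 3908 nt, and the libraries numbered 1 were also those with the shortest transcripts overall. TEAD3, at 2950 nt, had no gap, while CYR61, at 2283 nt, lay at -0.66. The part of transcript length in these values was not tested.

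The genes whose scaled pattern over the 6 libraries was most like that of YAP1 were KIF5B, AP1G1, PTPRG and CCDC93, of 6474 candidate genes averaging 10 FPKM or more. Their mean absolute difference from YAP1, on log2 values centred per gene, was 0.02 to 0.05, against a median of 0.69 over the candidates. For AMOTL2, the target gene with the highest mean over all 6 libraries, they were CRIM1, CCNF, PLXNA1 and MYOF, at 0.09 to 0.10 against a median of 0.63. CRIM1 and MYOF are also on the list of other YAP/TAZ target genes below. How many of the candidates are on that list was not counted. Like AMOTL2, both genes were lowest in replicate 1 of each group, and a shared cause was not tested.

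Transcript shares also set the libraries numbered 1 apart in WWTR1, YAP1 and TEAD3. In WWTR1, the 5030 nt transcript ENST00000465804 held 59.4%, 29.2% and 32.4% of the gene's FPKM in TP53TG1 replicates 1 to 3, against 49.0%, 29% and 23.5% in control replicates 1 to 3. Its share was thus highest in replicate 1 of each group, and the 2103 nt transcript ENST00000360632 held most of the rest. In YAP1, ENST00000531439, of 1490 nt, held 13.5%, 24.5% and 28.6% with TP53TG1 and 4.71%, 29.9% and 36.8% in controls, lowest in replicate 1 of each group.

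In TEAD3, a transcript annotated for nonsense-mediated decay, ENST00000402886, held 81.9% in TP53TG1 replicate 1 and 28.4% in control replicate 1, against 0 to 2.15% in the other 4 libraries. The coding transcript of TEAD3 alone stood at 0.49 FPKM in TP53TG1 replicate 1 and at 3.75 to 6.59 FPKM in the other 5 libraries. In AMOTL2 the 2 main transcripts, ENST00000249883 and ENST00000422605, held on average 60.6 ± 15.4% and 35.6 ± 18.2% with TP53TG1 and 62.6 ± 0.323% and 36.6 ± 1.75% in controls (SD, n = 3 each). CTGF and ANKRD1 have a single listed transcript, and CYR61 held at least 98.2% in ENST00000451137. How StringTie divides fragments between overlapping transcripts was not tested.

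**Figure D4:**
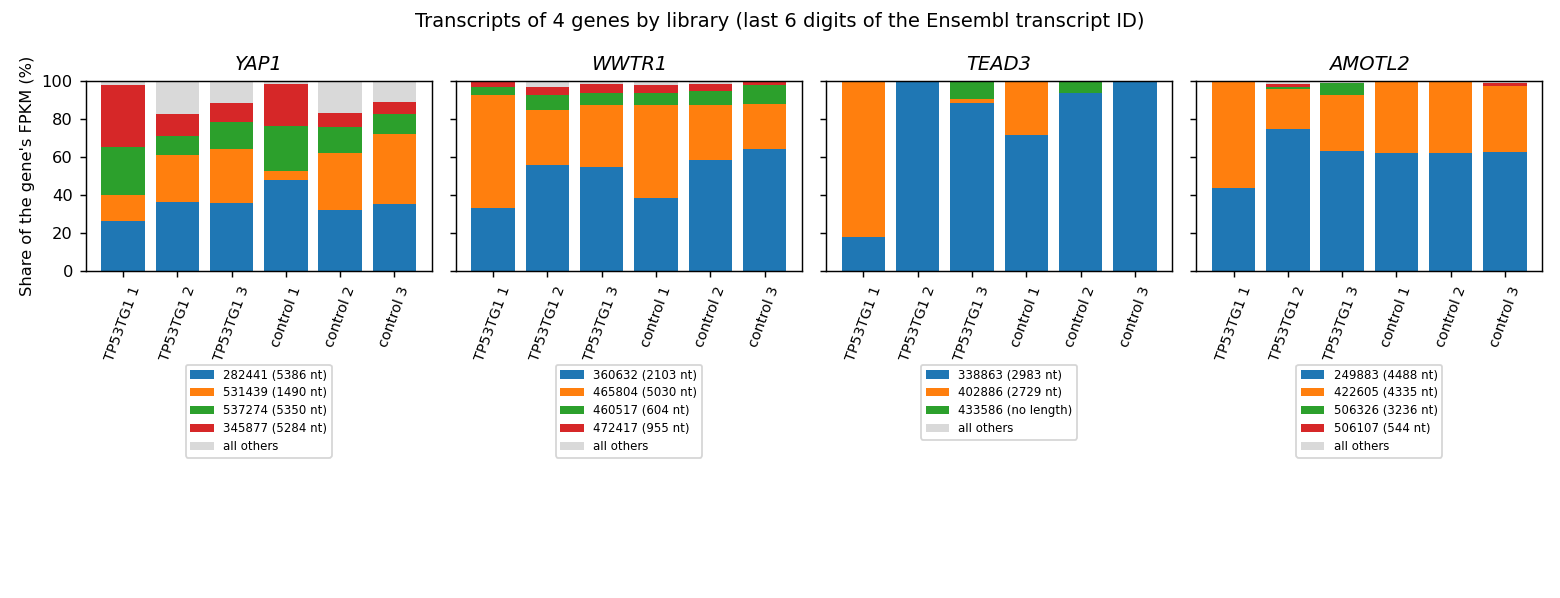
Share of a gene's FPKM in its most abundant transcripts (up to 4, named by the last digits of the Ensembl ID, with annotated length) in the 3 TP53TG1 and 3 control libraries, for YAP1, WWTR1, TEAD3 and AMOTL2. The orange part of WWTR1, the 5030 nt transcript, is largest in replicate 1 of each group, at 59.4% with TP53TG1 and 49.0% in the control.

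The Hippo kinases and scaffolds that act upstream held no gene called by limma and, without a block, none with an unadjusted p under 0.05. With the replicate block 0 were called and 3 had an unadjusted p under 0.05, STK38 in the kinase core and CRB3 and LIMD1 upstream, against 10.7% of all tested genes. Of 16 genes of the kinase core, all were tested, 0 were called, and 8 lay above the median of all tested genes with scaling (list median log2 fold change -0.32 without scaling and 0.00 with it, beside -0.35 and 0.00 for all genes). With scaling the groups of 1 of the 16 were apart, higher with TP53TG1 (2.01% of all tested genes). STK38, a kinase related to LATS, was listed at 0 in TP53TG1 replicate 1 and stood at 7.38 and 5.5 FPKM in TP53TG1 replicates 2 and 3, against 4.92 to 6.69 FPKM in controls. MOB1B, a LATS activator, stood at 2.21 ± 1.29 FPKM in TP53TG1 libraries and 3.26 ± 1.16 FPKM in control libraries, and TAOK3, a kinase upstream of the core, at 12 ± 7.23 FPKM in TP53TG1 libraries and 16.1 ± 5.46 FPKM in control libraries (SD, n = 3 each).

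Of 17 upstream and scaffold genes 14 were tested, with 0 called and a list median of -0.37 without scaling and -0.01 with it. The polarity scaffold gene SCRIB averaged 59.5 ± 5.0 FPKM in TP53TG1 libraries and 76.5 ± 5.95 FPKM in control libraries (SD, n = 3 each). Its groups were apart without scaling, as for 13.3% of all tested genes in that direction. Its log2 fold change of -0.36 turned to 0.05 with scaling. CRB3, which also acts in polarity, had a mean of 9.96 ± 4.79 FPKM in TP53TG1 libraries and of 15.7 ± 1.48 FPKM in control libraries (SD, n = 3 each). Of 11 genes for retention and turnover of YAP and TAZ, all tested, 0 were called, 0 had an unadjusted p under 0.05, and 8 lay above the median of all genes with scaling (list median 0.07). YWHAE, which encodes a 14-3-3 protein, had a mean of 368 ± 76.5 FPKM in TP53TG1 libraries and of 454 ± 16.3 FPKM in control libraries. Its groups overlapped with scaling and were apart without it, where 13.3% of all tested genes were apart and lower. CSNK1E, which encodes a casein kinase that acts in the degradation of YAP, had a mean of 54.5 ± 17.1 FPKM in TP53TG1 libraries and of 75.6 ± 19.5 FPKM in control libraries (SD, n = 3 each).

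VGLL and AP-1 proteins meet TEAD factors on DNA. VGLL4, which encodes a TEAD cofactor that competes with YAP, was the only 1 of 4 VGLL genes that was tested. It stood at 1.63, 27.7 and 22.4 FPKM in TP53TG1 replicates 1 to 3, against 14.9, 28.6 and 34.8 FPKM in control replicates 1 to 3 (log2 fold change -1.08, SE 0.828, limma adjusted p = 0.748). Its lowest value was again that of TP53TG1 replicate 1. With the replicate block VGLL4 had a limma adjusted p of 0.0712, and of 0.890 with the block and scaling.

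AP-1 factors bind beside TEAD factors at many enhancers, and 6 of 7 AP-1 genes were tested, with 0 called by limma and 1, JUND, at an unadjusted p under 0.05. JUND averaged 67.0 ± 20.2 FPKM in TP53TG1 libraries and 114 ± 4.71 FPKM in control libraries (SD, n = 3 each), with groups apart with and without scaling, as for 2.05% and 13.3% of all tested genes in that direction. Its log2 fold change was -0.81 (SE 0.296, limma adjusted p = 0.748) and -0.40 with scaling. FOSL1, the most abundant AP-1 gene, averaged 207 ± 23.9 FPKM in TP53TG1 libraries and 174 ± 71.6 FPKM in control libraries (SD, n = 3 each), at a log2 fold change of 0.32, and 0.73 with scaling. The list median was -0.25, and 0.10 with scaling. With the replicate block 0 AP-1 genes were called and 1, JUND, had an unadjusted p under 0.05, against 10.7% of all tested genes. With the block and scaling 0 were called and 2 had such a p, FOSL1 (higher) and JUND (lower), against 5.31%.

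Other genes known as YAP/TAZ targets gave no call. Of 18 genes of a pan-cancer signature outside the 10 (LATS2 and PTPN14 are on the upstream lists too), 13 were tested, 0 were called by limma, 0 had an unadjusted p under 0.05, and 10 lay above the median of all tested genes, with and without scaling (list median -0.17, and 0.15 with scaling). GADD45A, a DNA damage response gene, averaged 40.7 ± 24.1 FPKM in TP53TG1 libraries and 63.8 ± 22.5 FPKM in control libraries (SD, n = 3 each). F3, which encodes the initiator of coagulation, averaged 5.97 ± 4.43 FPKM in TP53TG1 libraries and 3.61 ± 0.878 FPKM in control libraries (SD, n = 3 each). Among 12 further targets described in liver and other tissues, 11 were tested, with 0 called by limma and 1, MYC, at an unadjusted p under 0.05, at a list median of -0.22, and 0.07 with scaling. With scaling the groups of 2 of the 11 were apart, both higher with TP53TG1 (2.01% of all tested genes). Without scaling they were apart for 1, SPP1, lower with TP53TG1 (13.3%). With the replicate block 0 genes of either list were called. An unadjusted p under 0.05 was then found for 1 signature gene, GADD45A, and 3 of the further targets, MYC, SPP1 and JAG1, against 10.7% of all tested genes. MYC averaged 90.7 ± 42.8 FPKM in TP53TG1 libraries and 171 ± 37.9 FPKM in control libraries (SD, n = 3 each), at a log2 fold change of -0.98 (SE 0.355, limma adjusted p = 0.748) and -0.57 with scaling. With the replicate block its limma adjusted p was 0.0669, and 0.890 with the block and scaling. SPP1, which encodes osteopontin, averaged 244 ± 82.5 FPKM in TP53TG1 libraries and 358 ± 33.6 FPKM in control libraries (SD, n = 3 each). Its groups overlapped with scaling and were apart without it, where 13.3% of all tested genes were apart and lower.

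Targets of SRF and its MRTF cofactors, which also act on CYR61 and CTGF, were set beside the YAP targets. Of 11 genes 10 were tested, 0 were called by limma, and 9 lay above the median of all tested genes with and without scaling (list median -0.21, and 0.19 with scaling). An unadjusted p under 0.05 was found for 0 of them without scaling, for 1, TAGLN, with scaling (against 1.17% of all tested genes) and for 3, TAGLN, ACTA2 and MYL9, with the block and scaling (against 5.31%). TAGLN, which encodes the actin-binding protein transgelin, stood at 5.16, 4.41 and 4.45 FPKM in TP53TG1 replicates 1 to 3, against 3.56, 2.41 and 3.25 FPKM in control replicates 1 to 3. Its groups were apart with and without scaling, as for 2.01% and 0.428% of all tested genes in that direction (log2 fold change 0.49, SE 0.325, limma adjusted p = 0.748). The 9 fibroblast markers, genes of a cell type with high CTGF and CYR61, summed to 121 to 143 FPKM in TP53TG1 libraries and 129 to 162 FPKM in control libraries, and most of that sum was VIM. Of them 6 were tested, 0 were called and all 6 lay above the median of all genes, at a list median of 0.47, and 0.75 with scaling, beside 0.19 and 0.51 for the 4 target genes. Without scaling the groups were apart and higher with TP53TG1 for 1 of the 6, COL1A1 (0.428% of all tested genes). With scaling they were so for 3, COL1A1, COL3A1 and LUM (2.01%). COL1A1 was at 10.9 FPKM in TP53TG1 replicate 1 and at 1.81 to 3.19 FPKM in the other 5 libraries. LUM stood at 9.99 to 15.0 FPKM in TP53TG1 libraries and 10.9 to 14.0 FPKM in control libraries, DCN at 1.01 to 2.92 FPKM in TP53TG1 libraries and 0.30 to 1.53 FPKM in control libraries, and THY1 at 0.21 to 1.0 FPKM in TP53TG1 libraries and 0.06 to 0.30 FPKM in control libraries. PDGFRA and PDGFRB stood at no more than 0.22 FPKM in any library, and 0 of the 9 were at 0 in all libraries. Their part in the values of the target genes was not tested. Of 8 paralogues of the targets 1 was tested, ANKRD23, at 0.990 FPKM in TP53TG1 libraries and 1.79 FPKM in control libraries (means, n = 3 each), with 0 called.

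**Figure D5:**
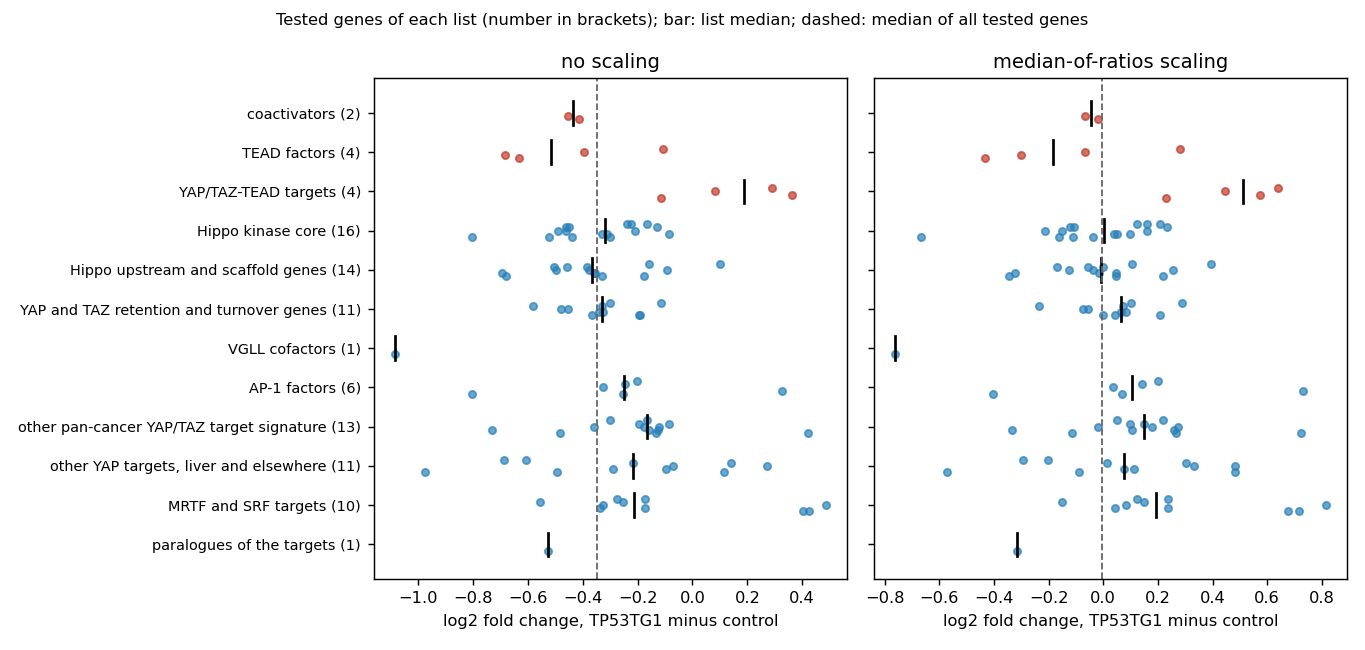
Log2 fold change (TP53TG1 minus control) of the tested genes of each list without scaling (left) and with median-of-ratios scaling (right); black bars are list medians and dashed lines the median of all tested genes. The 10 genes are in red; the 4 targets have a median of 0.19 without scaling and 0.51 with it, and 0 genes of these lists passed the test.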

How the data were processed

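The authors deposited FPKM values, 1 for each of 199234 transcripts and each library, made with HISAT2 and StringTie on GRCh38.p10 as far as the submitters' processing notes name tools and build; versions, parameters and annotation were not given. Headers state no unit. FPKM was inferred from totals that differ between libraries (599081 to 890541), unlike TPM; coverage per base is not excluded. Only 24.1% to 26.4% of low values fell within 0.1 of a whole multiple of their smallest step, so depth is unknown and no count test was run.

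Transcripts were added per gene, with blank symbols filled by transcript ID. GENCODE release 29 (GRCh38) gave positions and lengths. The 12853 genes at a mean of 1 FPKM or more were fitted on log2(FPKM + 1) of the deposited values, unscaled, with limma 3.58.1 (mean-variance trend, R 4.3.3), Benjamini-Hochberg adjusted, threshold 0.05. Alternatives were median-of-ratios scaling, equal totals, other filters, a pseudocount of 0.1, coding transcripts only, left-out libraries and the replicate number as a block. Deviations of same-numbered libraries correlated across genes at 0.710, 0.562 and 0.289, above the limit of 0.1 for a pairing. Any pairing thus comes from the data and not the labels. TP53TG1 replicate 2 with control 3, at 0.400, and TP53TG1 replicate 3 with control 2, at 0.302, also passed that limit. Unlike-numbered pairs with a library numbered 1 lay between -0.635 and -0.389. The correlations set the libraries numbered 1 apart and do not establish pairs 2 and 3. In the block fit without scaling all 10 genes had an SE of 0.325 to 0.337, so their spread came almost wholly from the trend. Tables and exact tests used Python 3.11.15 with pandas 2.3.3 and scipy 1.17.1.

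The members and lists were chosen with earlier results of these data known. The 10 genes were always named, and from each other list up to 4 tested genes with the smallest p could be named.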

Additional observations from a re-analysis of the deposited data

How the results depend on the processing

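The number of the 10 genes called was 0 under every alternative tried. TEAD1, TEAD3 and ANKRD1 had no value with a mean of at least 5 FPKM. The number of all genes called was 1 in the fit reported, 0 with no filter and with coding transcripts only, 2 with a mean of at least 5 FPKM and with median-of-ratios scaling, 192 with the replicate block, 6 with the replicate block and scaling, and 0 to 1 over the fits without 1 replicate each. Without both libraries numbered 1, the replicate block and scaling (chosen after seeing the data) gave 23, with 2 libraries left in each group. Groups were apart for 0 of 10 genes over all libraries with and without scaling, and, without the libraries numbered 1 (also chosen after seeing the data), for 2 without scaling and 4 with it. Scaling moved the median of all genes from -0.35 to 0.00 and turned the medians of several lists from below to above 0, to 0.10 for AP-1 factors, 0.15 for the pan-cancer signature, 0.07 for the other YAP targets, 0.19 for MRTF and SRF targets and 0.07 for retention and turnover. Fold changes that turned in sign, none of them called, were as follows. Without 1 replicate each, YAP1 ranged from -0.96 to 0.24, WWTR1 from -0.71 to 0.12, TEAD1 from -1.13 to 0.14, TEAD4 from -0.37 to 0.10, CYR61 from -0.092 to 0.62, CTGF from -0.38 to 0.39 and AMOTL2 from -0.51 to 0.56. With median-of-ratios scaling, with and without the block, TEAD4 was 0.28 and AMOTL2 0.23; with equal totals they were 0.15 and 0.11. Without both libraries numbered 1, TEAD4 was 0.042, AMOTL2 0.16 and CTGF -0.065, and with scaling added, with and without the block, TEAD4 was 0.20, AMOTL2 0.32 and WWTR1 0.060. Apart from the scaling, whose factor for TP53TG1 replicate 1 was 0.601, the cause was not tested. The replicate block changed no call of the 10 genes, and it moved the number of all genes called to 192.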
